A study of Mus musculus with 4 samples.

Results

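Polycomb repressive complex 2 (PRC2) was followed through the transcripts of 9 of its subunits in double-positive (DP) thymocytes of Chaf1b knockout and control genotype. The 9 genes are Ezh2, Ezh1, Eed, Suz12, Jarid2, Aebp2, Mtf2, Phf1 and Phf19. They were taken by symbol as the core and accessory subunits of the complex, all 9 were found among the 56239 genes of the count table, and all 9 were among the 15070 genes that passed the filter on low counts. The knockout (KO) group was Cd4-cre;CHAF1bfloxp/floxp and the wild-type (WT) group was CHAF1bfloxp/floxp without Cre, so both groups carry the floxed Chaf1b alleles on C57BL/6. Cd4-cre expresses Cre recombinase from Cd4 regulatory sequence, which in the thymus becomes active around the DP stage. The controls lack the transgene, so an effect of Cre itself and an effect of losing Chaf1b cannot be told apart. The cells were CD4+CD8+ thymocytes obtained by sorting. There were 2 libraries in each group. The labels name neither an age nor how many mice gave each library, and p-values here thus measure how far these libraries spread. The libraries of a group differed in sex by the Xist and Ddx3y counts given below, so they came from different mice. Without sex as a term the spread includes that difference, and how much of the rest is technical is not known.

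PRC2 places methyl groups on H3K27, a mark of genes that are kept silent through cell division. EZH2 or its paralog EZH1 holds the catalytic site, SUZ12 is the scaffold, EED reads the finished mark and stimulates the enzyme, and RBBP4 or RBBP7 binds histones. Accessory subunits sort the complex into separate forms: JARID2 and AEBP2 mark one form, and the Polycomb-like proteins PHF1, MTF2 and PHF19, which bind CpG-rich DNA and methylated H3K36, mark the other. In T-lineage cells EZH2 is the main enzyme of dividing cells and EZH1 persists in resting ones. RBBP4 is also the small subunit of chromatin assembly factor 1 (CAF-1), the H3-H4 chaperone that contains CHAF1B.

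The promoter windows of 4 members are shown because Phf1 had the largest difference of the 9 and the other 3 held an E2F word, the kind of site through which E2F factors act on S-phase genes. Each window is the RefSeq sequence on GRCm38.p6 from 250 bases before to 50 bases after an annotated start, printed 5′ to 3′ on the gene's own strand. Capitals mark E2F words (TTTCCCGC, TTTCGCGC, TTTGCCGC or TTTGGCGC) and GC boxes (GGGCGG), each searched on both strands.
Phf1, chr17:26932877-26933176, plus strand: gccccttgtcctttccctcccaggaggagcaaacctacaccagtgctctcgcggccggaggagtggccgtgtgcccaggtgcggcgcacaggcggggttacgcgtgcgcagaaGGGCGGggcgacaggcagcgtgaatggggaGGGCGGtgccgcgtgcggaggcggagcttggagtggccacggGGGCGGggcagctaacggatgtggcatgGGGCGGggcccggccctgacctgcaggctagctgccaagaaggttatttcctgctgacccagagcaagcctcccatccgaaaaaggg
Ezh2, chr6:47594981-47595280, minus strand: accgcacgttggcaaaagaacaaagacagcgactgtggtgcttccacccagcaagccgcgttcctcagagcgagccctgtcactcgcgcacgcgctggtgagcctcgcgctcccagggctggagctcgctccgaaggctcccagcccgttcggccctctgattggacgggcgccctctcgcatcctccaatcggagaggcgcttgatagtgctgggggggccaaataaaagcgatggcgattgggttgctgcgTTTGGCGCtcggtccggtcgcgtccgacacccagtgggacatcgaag
Suz12, chr11:79992856-79993155, plus strand: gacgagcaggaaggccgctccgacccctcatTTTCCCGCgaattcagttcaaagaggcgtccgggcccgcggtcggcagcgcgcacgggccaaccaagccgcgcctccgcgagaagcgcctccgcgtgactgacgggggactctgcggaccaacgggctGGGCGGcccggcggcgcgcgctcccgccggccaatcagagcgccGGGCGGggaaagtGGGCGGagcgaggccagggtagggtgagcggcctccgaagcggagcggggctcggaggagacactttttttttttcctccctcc
Phf19, chr2:34913927-34914226, minus strand: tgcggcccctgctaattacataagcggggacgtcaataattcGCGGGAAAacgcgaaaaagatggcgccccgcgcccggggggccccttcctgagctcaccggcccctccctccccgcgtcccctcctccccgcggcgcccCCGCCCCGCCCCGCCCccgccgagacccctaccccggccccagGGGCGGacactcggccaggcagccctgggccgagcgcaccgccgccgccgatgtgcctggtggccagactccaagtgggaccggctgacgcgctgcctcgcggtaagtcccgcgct
All 9 members had a window in the table, with 13 windows in all. An E2F word was found in 3 of these 13 windows, those of Ezh2, Suz12 and Phf19, against 2.26% of the 32851 windows of all genes. The Ezh2 word began at position 4 after the start, while those of Suz12 and Phf19 began at -219 and -208. The Phf1 window held 4 GC boxes and no E2F word, and 5.49% of all windows held at least that many GC boxes. A GC box was found in 8 of the 13 windows, which belong to 6 members, against 35.7% of all windows, and none of the E2F words in the members' windows overlapped a GC box. Such matches describe letters in the window and do not show binding.

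Library totals ran from 21068760 to 27369874 counts. The replicate number coincided with sex: Xist had 47301 counts in KO replicate 1 and 12 in KO replicate 2, against 47368 and 8 in WT, so replicate 1 was female and replicate 2 male. The Y-linked Ddx3y had the opposite pattern, with 14 and 3311 counts in KO against 2 and 5384 in WT. The targeted transcript was lower but still present in both KO libraries: Chaf1b had 12.2 and 14.8 CPM (counts scaled to library size with TMM factors) in KO against 27.9 and 31.7 CPM in WT, a log2 fold change of -1.14 ± 0.16 (SE). It passed in edgeR with sex as a term (adjusted p = 0.0172) and not without it (edgeR adjusted p = 0.267). All 12 DP marker genes examined were expressed, Cd4 and Cd8a at 1814 CPM or more in each library. Of 8 NK and gamma-delta genes, Ncr1, Klrd1 and Gzmb had 0 counts in all 4 libraries, and Klrb1c had 1 and 8 counts in KO against 0 and 0 in WT. Gzma, a granzyme gene of that list, had 54.5 and 31.2 CPM in KO against 22.4 and 17.6 CPM in WT and rose in edgeR with sex as a term (adjusted p = 0.0194). The KO libraries, and KO replicate 1 most, had higher shares of 2 RNA classes. Mitochondrially encoded transcripts took 3.30% of its counts (exact 95% interval 3.29 to 3.31) and 2.03% of those of KO replicate 2 (2.02 to 2.04), against 1.33% (1.33 to 1.34) and 1.45% (1.45 to 1.46) in WT. Ribosomal protein transcripts took 4.94% and 3.59% of counts in KO against 2.86% and 2.91% in WT. Marker sums of the 4 other lymphoid lists were higher in both KO libraries: 282.8 and 233.6 CPM in KO against 195.8 and 178.2 CPM in WT for 6 mature single-positive genes, 31.4 and 22.7 against 18.6 and 16.2 CPM for 4 double-negative genes, 154.1 and 122.5 against 112.0 and 94.3 CPM for the NK and gamma-delta genes, and 493.7 and 492.7 against 488.4 and 426.0 CPM for 6 B cell genes. Of the B cell genes Cd79b rose in edgeR with sex as a term (adjusted p = 0.0413). The sum of 7 myeloid genes was lower, at 8.29 and 10.6 CPM in KO against 13.4 and 12.4 CPM in WT. Its genes did not move together: of the 4 that were tested, 2 had log2 fold changes below 0 and 2 above. The part of these cells in the results on PRC2 was not tested. Liver transcripts such as Alb were present in every library and followed the replicate number, with a summed level for 7 genes of 393.6 and 8.56 CPM in KO and 366.5 and 82.2 CPM in WT.

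In the main fit, which had no covariate, 0 of the 9 PRC2 members passed the test. In an alternative fit with sex as a term, Phf1 passed and the other 8 did not. Phf1, a Polycomb-like subunit, was lower in both KO libraries, at 25.1 ± 17.1 CPM in KO and 64.9 ± 8.94 CPM in WT (SD, n = 2 each). The other 8 members had log2 fold changes between -0.34 and 0.07. The comparison of KO with WT used edgeR's quasi-likelihood F test over all 15070 genes. A gene was called where its Benjamini-Hochberg adjusted p was under 0.05. Without a covariate, edgeR called 0 of the 9 members, where 0.00664% of all tested genes were called (1 gene, higher in KO), and 1 member had an unadjusted p under 0.05, where 16.8% of all tested genes did. With sex as a term, edgeR called 1 of the 9 members, Phf1, lower in KO, where 2.20% of all tested genes were called lower and 3.21% in either direction. These are the plain fit and the sex-term fit below. The sex term is the replicate number, so it also takes up any other difference between replicates 1 and 2, such as that in liver transcripts. DESeq2 called 0 members (3.07% of all tested genes), and edgeR without the filter on low counts called Phf1 alone of the 9 (5.63%). CPM of the groups did not overlap for 4 members, all lower in KO (Ezh2, Eed, Phf1 and Phf19), beside 28.4% of all tested genes lower in KO without overlap. No member was higher in KO without overlap, where 27.9% of all tested genes were. The median log2 fold change of the 9 members was -0.15 in the plain fit, against -0.0026 for all tested genes. Of the 9 members 7 were below 0, beside 7570 of all 15070 tested genes. In bulk RNA a smaller share of cells with a transcript and less of it per cell cannot be told apart.

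**Figure D1:**
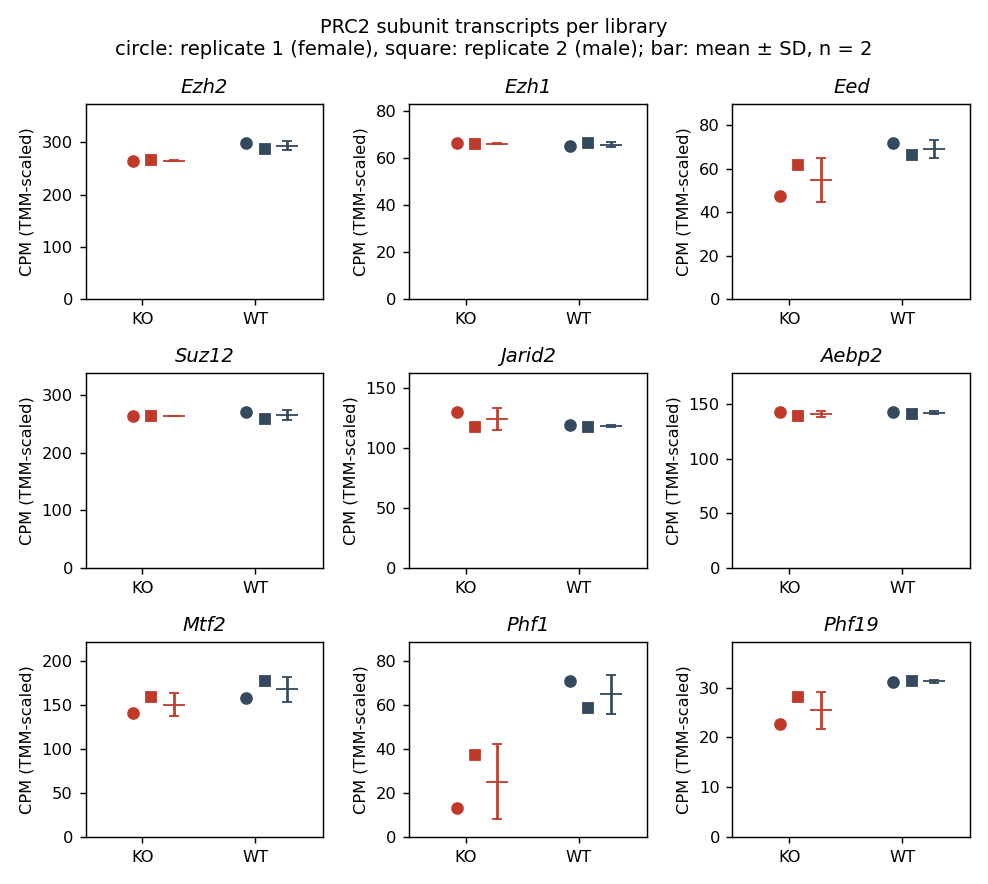
Level of each PRC2 member in the 4 libraries, in TMM-scaled CPM on linear axes from 0, with KO at the left and WT at the right of each panel. Circles are replicate 1 (female), squares are replicate 2 (male) and bars are mean ± SD (n = 2). Phf1 lies at 13.0 and 37.2 CPM in KO and at 71.3 and 58.6 CPM in WT, while Suz12, Aebp2 and Ezh1 overlap between the groups.

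The catalytic subunits kept their order of abundance in KO cells. Ezh2 (chromosome 6, 47530139 to 47595341 on GRCm38) stood at 263.7 and 265.5 CPM in KO against 299.1 and 286.9 CPM in WT. Both KO values lay below both WT values. Its log2 fold change was -0.15 with a 95% interval of -0.42 to 0.13, and it did not pass in edgeR's plain fit (adjusted p = 0.508) or in edgeR's sex-term fit (adjusted p = 0.639). Ezh1, the paralog with weaker methyltransferase activity, had 66.2 and 65.8 CPM in KO against 64.8 and 66.3 CPM in WT. The Ezh1 values of the groups overlapped, and the 95% interval of its log2 fold change ran from -0.25 to 0.27. That interval allows KO levels between 0.840 and 1.21 times those of WT. Per kilobase of annotated exon, Ezh1 transcripts were at 0.225 and 0.222 of the Ezh2 level in KO and at 0.194 and 0.208 in WT. Both KO ratios were above both WT ratios. The design of 2 libraries against 2 cannot give an exact two-sided permutation p below 0.333, so ratios are given without a test.

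Of the other core subunits, Suz12 overlapped between the groups and Eed was lower mainly in 1 KO library. Suz12, the scaffold, had 263.7 and 263.2 CPM in KO against 271.4 and 259.5 CPM in WT. The KO values lay between the WT values, with a log2 fold change of -0.011 and a 95% interval of -0.28 to 0.26. Eed had 47.4 and 61.7 CPM in KO against 71.9 and 66.1 CPM in WT. KO replicate 1 was the low Eed value, and KO replicate 2 was near the lower WT library. The log2 fold change of Eed was -0.34 ± 0.16 (SE) in edgeR's plain fit (adjusted p = 0.322) and -0.35 ± 0.15 in edgeR's sex-term fit (adjusted p = 0.217), and it did not pass in either. Eed differed by -0.60 (log2) between the female libraries and by -0.098 between the male ones. Without KO replicate 1 the log2 fold change of Eed was -0.15 (edgeR adjusted p = 0.410), in a fit that called 3.31% of all tested genes, and without KO replicate 2 it was -0.54 and passed (edgeR adjusted p = 0.00310), in a fit that called 32.3% of all tested genes. In each such fit the lone library of a group is assumed to vary as the other group does. Eed shares 261 bases of exon, 6.82% of its exon bases, with the noncoding gene E230029C05Rik on the other strand, which had at most 5 counts in any library.

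Rbbp4 and Rbbp7, the histone-binding subunits that PRC2 shares with other complexes, were slightly higher in KO. Rbbp4 had 384.1 and 375.0 CPM in KO against 348.8 and 345.1 CPM in WT. Rbbp7 had 156.5 and 140.3 CPM in KO against 137.9 and 130.9 CPM in WT. Neither pair of groups overlapped, but the log2 fold changes of 0.13 and 0.14 did not pass in edgeR's plain fit (adjusted p = 0.575 and 0.528) or in edgeR's sex-term fit (adjusted p = 0.701 and 0.605). Epop, an accessory subunit that links PRC2 to elongin, was low, with 57 and 45 counts in KO against 40 and 51 counts in WT. Lcor, whose locus also encodes a PRC2-binding protein, had a log2 fold change of 0.31 and its paralog Lcorl one of -0.20. Ezhip, an inhibitor of the complex, had 0 counts in every library, which allows up to 0.132 and 0.139 CPM in KO and 0.127 and 0.106 CPM in WT at 3 counts. Of these 6 other subunits or regulators 5 were measured, and 0 were called in either direction in the plain or the sex-term fit.

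Jarid2 and Aebp2, the subunits of the form without Polycomb-like proteins, showed the smallest differences besides Ezh1 and Suz12. Jarid2, which helps to recruit the complex to chromatin, had 130.1 and 117.2 CPM in KO against 118.7 and 117.4 CPM in WT. KO replicate 1 was the high value and the other 3 libraries lay between 117.2 and 118.7 CPM. The log2 fold change of Jarid2 was 0.067 with a 95% interval of -0.21 to 0.34, and it turned to -0.019 when libraries were scaled to their totals alone. Aebp2, a zinc-finger protein that stabilises the complex, had 143.4 and 139.6 CPM in KO against 143.3 and 141.5 CPM in WT. Its groups overlapped, and its 95% interval of -0.26 to 0.24 on the log2 scale allows KO levels between 0.834 and 1.18 times those of WT.

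Among the Polycomb-like genes Phf1 was low in both KO libraries, and by different amounts. Phf1 (chromosome 17, 26933052 to 26937908, plus strand, GRCm38), whose promoter is printed above, had 294 and 804 counts in KO replicates 1 and 2 against 1689 and 1662 counts in WT. That is 13.0 and 37.2 CPM in KO against 71.3 and 58.6 CPM in WT. Every KO value lay below every WT value, and the KO libraries differed from each other by more than the WT libraries did. Between the female libraries Phf1 differed by -2.45 on the log2 scale, and between the male libraries by -0.65. In edgeR's plain fit the log2 fold change was -1.37 ± 0.45 (SE) with a 95% interval of -2.47 to -0.28, and it did not pass (adjusted p = 0.267). In edgeR's sex-term fit it was -1.53 ± 0.31 and passed (adjusted p = 0.0309), so Phf1 was lower by that test. The fit leaves 1 residual degree of freedom, so this SE rests mostly on the spread of other genes. That fit also assumes the same KO effect in both sexes, whereas the differences within each sex were unequal. Phf1 did not pass in an edgeR sex-term fit robust to outlying genes (-1.53 ± 0.69, adjusted p = 0.429), where 0.504% of all tested genes were called. Nor did it pass with library-total scaling in the sex-term fit (edgeR adjusted p = 0.0544), where 0.962% were. Without KO replicate 1 the log2 fold change of Phf1 was -0.80 and without KO replicate 2 it was -2.33, each resting on a single KO library. In the plain fit 140 of the 15070 tested genes, or 0.929%, had a lower log2 fold change than Phf1. The high mitochondrial share of KO replicate 1, 3.30% against 2.03% in KO replicate 2, moved with the low Phf1 count of that library, as did the ribosomal protein share. Their part in the result was not tested.

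**Figure D2:**
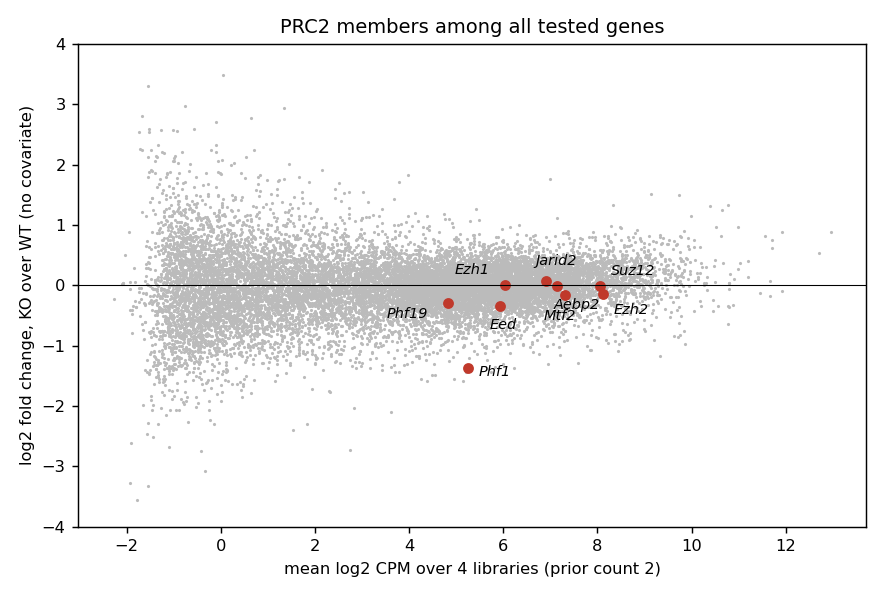
Log2 fold change of KO over WT (edgeR, no covariate) against mean log2 CPM for 15070 tested genes (grey), with the 9 PRC2 members in red. The vertical axis is cut at 4 in either direction, which leaves 7 genes outside. Phf1 lies at the lower edge of the genes of its abundance and the other members lie within the grey band near 0.

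The paralogs of Phf1 were lower by less. Mtf2, the Polycomb-like gene with the highest level here, had 141.3 and 159.9 CPM in KO against 158.0 and 178.2 CPM in WT. KO replicate 2 lay between the WT values, so the groups overlapped, although each KO library was below the WT library of its sex (log2 differences of -0.16 in both pairs). Its log2 fold change was -0.16 with a 95% interval of -0.46 to 0.15. Phf19, the least abundant member in WT, had 22.7 and 28.1 CPM in KO against 31.1 and 31.4 CPM in WT. The WT libraries were close to each other, KO replicate 1 was the lowest, and the log2 fold change of -0.30 ± 0.15 (SE) did not pass in edgeR's plain fit (adjusted p = 0.336) or in edgeR's sex-term fit (adjusted p = 0.299). Without KO replicate 2, where 32.3% of all tested genes were called, Mtf2 and Phf19 passed (edgeR adjusted p = 0.0383 and 0.0123), and without KO replicate 1 neither did (edgeR adjusted p = 0.736 and 0.443). Whether the difference of Phf1 exceeded that of its paralogs was not tested.

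**Figure D3:**
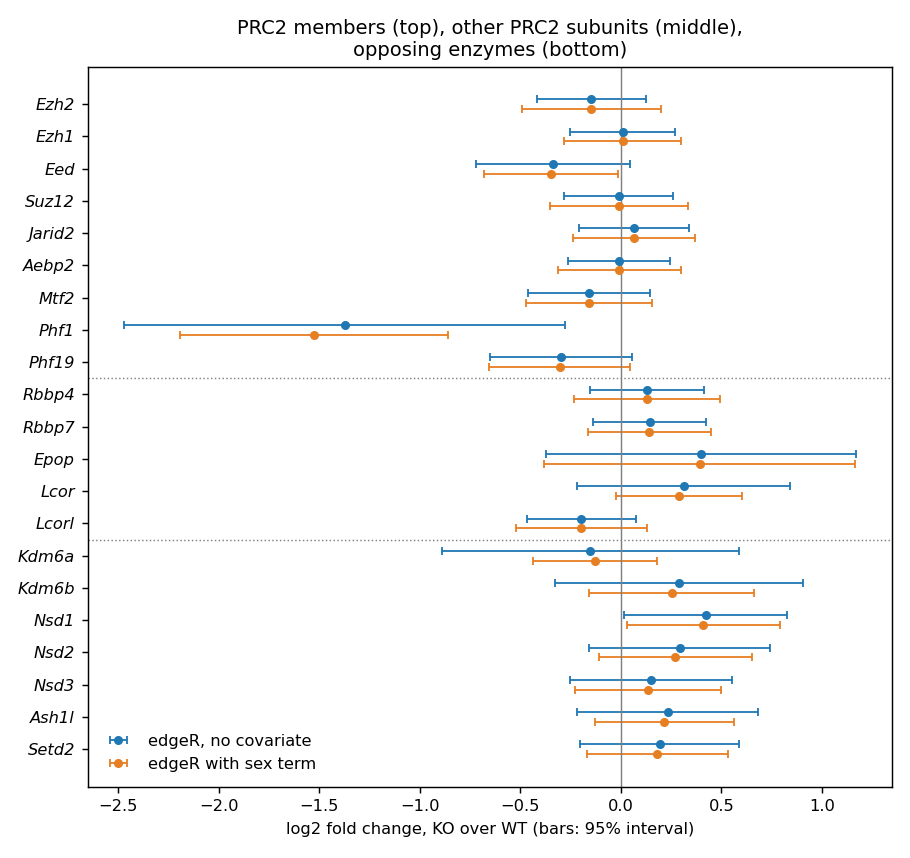
Log2 fold change of KO over WT for the 9 PRC2 members (top), 5 measured other subunits (middle) and 7 opposing enzymes (bottom). Values are from edgeR without a covariate (blue) and with a sex term, which is the replicate number (orange). Bars are 95% intervals per gene, not adjusted for the number of genes. Phf1 lies at -1.37 and -1.53, apart from the other 8 members, which lie between -0.35 and 0.07.

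The Phf1 gene overlaps a neighbour, which limits what its count covers. Of 3486 exon bases of Phf1 in the deposited annotation, 1370 (39.3%) also belong to exons of Cuta, a gene on the opposite strand whose product resembles a bacterial copper-tolerance protein. The libraries do not keep strand and fragments that fit both genes were not counted, so the values of both rest mainly on their other exon bases. Cuta itself had 37.2 and 47.7 CPM in KO against 54.0 and 55.9 CPM in WT. These groups did not overlap, and the log2 fold change of -0.37 ± 0.15 (SE) was smaller in size than that of Phf1 and did not pass in edgeR's plain fit (adjusted p = 0.293) or in edgeR's sex-term fit (adjusted p = 0.160). The model AC144621.3, which shares 156 of the exon bases of Phf1, had 0 counts in all libraries. Mtf2 shares 395 exon bases, 6.93% of its own, with Tmed5 on the opposite strand, which encodes a cargo receptor of the secretory pathway. Tmed5 had 71.3 and 53.3 CPM in KO against 50.9 and 53.0 CPM in WT. Exons of Ezh1, Ezh2, Suz12, Jarid2, Aebp2 and Phf19 overlapped no other gene of the table.

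Levels of the members were set against each other per kilobase of annotated exon. In KO the order of mean CPM per kilobase was Suz12 (53.3), Ezh2 (39.6), Mtf2 (26.4), Aebp2 (14.4), Eed (14.3), Jarid2 (12.7), Ezh1 (8.87), Phf1 (7.20) and Phf19 (5.05). In WT it was Suz12 (53.7), Ezh2 (43.9), Mtf2 (29.5), Phf1 (18.6), Eed (18.0), Aebp2 (14.5), Jarid2 (12.1), Ezh1 (8.81) and Phf19 (6.20). In KO the libraries of Aebp2 and Eed, of Eed and Jarid2, of Ezh1 and Phf1, and of Phf1 and Phf19 overlapped, so those neighbours are not ordered beyond their spread. In WT this held for Phf1 and Eed. The place of Phf1 depended on the length used. Over the exon bases that no other gene shares, Phf1 stood at 6.13 and 17.6 CPM per kilobase in KO against 33.7 and 27.7 CPM per kilobase in WT, and Ezh1 at 8.90 and 8.84 in KO.

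The make-up of the Polycomb-like group was set out for each library. Together Mtf2, Phf1 and Phf19 summed to 33.0 and 44.3 CPM per kilobase in KO against 54.3 and 54.3 CPM per kilobase in WT. Phf1 made up 11.3% and 24.1% of that sum in KO and 37.6% and 31.0% in WT. Mtf2 made up 75.1% and 63.3% in KO and 51.0% and 57.6% in WT, and Phf19 13.7% and 12.6% in KO and 11.3% and 11.5% in WT. The groups overlapped for none of these 3 shares, and since the shares add up to the whole, a lower share of one raises the others. Jarid2 and Aebp2 together stood at 0.846 and 0.592 of the Polycomb-like sum in KO and at 0.493 and 0.487 in WT. The denominator of this ratio is that same sum, which was lower in KO, while Jarid2 and Aebp2 each overlapped between the groups. The ratio is thus no separate result. Counted per exon base that no other gene shares, the Phf1 share was 16.4% and 33.0% in KO and 48.4% and 41.02% in WT. The relation of Ezh2 to Suz12 was 0.741 and 0.747 in KO and 0.816 and 0.819 in WT, and that of Eed to Suz12 was 0.232 and 0.303 in KO and 0.342 and 0.329 in WT. These are ratios of transcripts and say nothing of the amounts of protein in the complex.

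**Figure D4:**
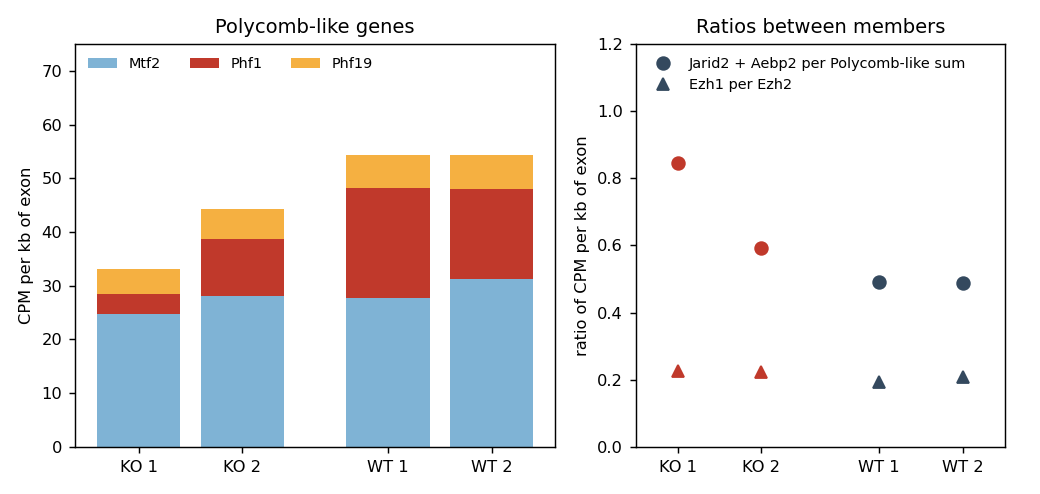
Left, stacked CPM per kilobase of exon of the 3 Polycomb-like genes in each library, KO at the left and WT at the right. Right, the ratio of Jarid2 plus Aebp2 to the Polycomb-like sum (circles) and of Ezh1 to Ezh2 (triangles) in the same libraries, KO in red and WT in dark blue. The Phf1 part is smallest in KO replicate 1, where the sum is 33.0, and both ratios are higher in each KO library than in each WT library. The circles have the sum of the left panel as their denominator.

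The genes whose profile over the 4 libraries was most like that of Phf1 were found by the Euclidean distance between log2 CPM centred on each gene's mean, over genes with a mean of at least 5 CPM. The 3 nearest were Egfl8 (distance 0.12), Krtcap3 (0.16) and Snhg5 (0.19). Egfl8, which encodes a secreted protein with EGF-like repeats, had 3.70 and 10.6 CPM in KO against 18.6 and 16.9 CPM in WT. Krtcap3 had 1.76 and 5.51 CPM in KO against 9.16 and 8.43 CPM in WT, and Snhg5, a host of small nucleolar RNA, had 7.32 and 21.01 CPM in KO against 40.7 and 38.8 CPM in WT. All 3 were lowest in KO replicate 1, as Phf1 was. With 4 libraries, of which both pairs share a sex, such likeness is a description.

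The enzymes that oppose PRC2, by removing its mark or by methylating H3K36, which hinders it, did not pass the test. Of 7 such genes 0 were called in either direction in edgeR's plain or sex-term fit, and 6 had log2 fold changes above 0 and 1 below. Kdm6a, an X-linked H3K27 demethylase, had 141.7 and 94.4 CPM in KO against 166.4 and 96.0 CPM in WT and so followed the sex of the library. Kdm6b, the other demethylase, had 684.5 and 417.5 CPM in KO against 494.4 and 407.9 CPM in WT, with KO replicate 1 the highest. Nsd1, an H3K36 methyltransferase, was the only gene of the 7 whose groups did not overlap. It was higher in KO, where 27.9% of all tested genes were higher without overlap. Nsd1 had 496.9 and 378.9 CPM in KO against 339.3 and 314.7 CPM in WT (log2 fold change 0.42 ± 0.17, SE, edgeR adjusted p = 0.290). Nsd2, Nsd3, Ash1l and Setd2, which also methylate H3K36, had log2 fold changes of 0.29, 0.15, 0.23 and 0.19. All 5 H3K36 methyltransferases were highest in KO replicate 1.

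Developmental regulators that PRC2 is known to keep silent were for the most part without counts. Of 72 such genes, 48 had 0 counts in all 4 libraries, and 7 passed the filter. None of the 7 was called in either fit, and all 7 had a log2 fold change below 0, with a median of -0.35. Hoxa7, the highest of them, had 4.10 and 3.52 CPM in KO against 5.06 and 5.54 CPM in WT. Pax7, a regulator of muscle progenitors, had 2.56 and 2.82 CPM in KO against 2.95 and 3.39 CPM in WT. Summed over the list, the level was 12.1 and 12.8 CPM in KO against 16.2 and 16.9 CPM in WT. A count was seen for 13 and 14 of the 72 genes in KO and for 19 and 18 in WT. The list thus showed no higher summed level in KO at this depth.

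Genes of dividing cells were examined because EZH2 is abundant in such cells. Of 14 genes of S phase and mitosis 0 were called in either fit, with 10 log2 fold changes above 0 and 4 below and a median of 0.12. Groups did not overlap for 8 of the 14 higher in KO and for 4 lower in KO, beside 27.9% and 28.4% of all tested genes. The 2 most highly expressed genes of the list, Top2a and Mki67, were both among those above 0. Top2a had 1098 and 782.7 CPM in KO against 776.8 and 723.2 CPM in WT, and Mki67 had 1862 and 953.3 CPM in KO against 881.5 and 792.3 CPM in WT. KO replicate 1 was the highest for both. Of the 3 members whose promoters are printed above with E2F words, Ezh2 and Suz12 had nearly the same level in both KO libraries and Phf19 was lower in KO replicate 1 than in KO replicate 2.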

How the data were processed

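RNA-seq was done on sorted CD4+CD8+ thymocytes, 2 KO and 2 WT libraries, grouped by the labels. Per the labels' protocols, poly(A) RNA was selected with a kit that keeps no strand. The submitters' processing notes name GRCm38 and the tools HISAT2, DESeq2, FastQC, featureCounts 1.6.4 and Trim Galore 0.5.0. The authors deposited unnormalised counts of fragments over exons, summed by gene with featureCounts 1.6.3 on the Ensembl 98 annotation per the file headers, with no option for multi-mapped fragments or fragments over several genes, which were therefore left out. Symbols came from GENCODE M21 and matched 55154 of 56239 IDs (98.1%). Total counts were 24688653 and 21068760 in KO and 23215539 and 27369874 in WT. Intervals for shares cover counting error only.

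In R 4.3.3, genes were kept with filterByExpr, given TMM factors of 0.919 to 1.04 and compared by the quasi-likelihood F test of edgeR 4.0.16, KO over WT, with no covariate and adjustment over all 15070 tested genes. An SE is the log2 fold change divided by the root of F, and a 95% interval uses the moderated degrees of freedom. A second fit had the replicate number, which separates the sexes, as a term. Differences within a sex use log2 CPM (prior count 2). CPM per kilobase uses the exon length in the deposited table. DESeq2 1.42.0, limma 3.58.1, other scalings and fits without single libraries were alternatives. The edgeR steps were also run on counts simulated with no sex or replicate effect. Such counts cannot show how either fit behaves where replicates differ, as they do here. Named genes were all members, the targeted gene, genes overlapping a member, every measured gene of the lists of other subunits and opposing enzymes, up to 4 of each other list by size of change among those called (else the 2 most highly expressed), and the 3 genes most like Phf1. The genes most like Ezh2 are not reported here. Marker genes, Xist and Ddx3y were named as checks. Promoter sequences are from RefSeq on GRCm38.p6. The members and lists were chosen with earlier results of these data known.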

Additional observations from a re-analysis of the deposited data

Results flagged for a closer look

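For 4 members KO lay above WT in one sex and below it in the other, each from a single KO and a single WT library. Ezh1 differed by 0.031 (log2, KO minus WT) between the female libraries and by -0.012 between the male ones. Suz12 differed by -0.042 and 0.021, Jarid2 by 0.132 and -0.0028, and Aebp2 by 0.0013 and -0.020, female first. Whether the sexes differ was not tested.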

How the results depend on the processing

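The number of calls depended on the fit. The test without a covariate called 1 gene higher in KO and 0 lower (2535 in either direction at an unadjusted p under 0.05), as did edgeR with RLE size factors, edgeR with library-total scaling and limma-voom. DESeq2 called 177 higher and 285 lower (3.07% of genes) with 0 members among them, and edgeR without the filter on low counts 627 and 838 (5.63%) with 1 member, Phf1. With the replicate block edgeR called 152 higher and 331 lower and 1 member, with the block and library-total scaling 26 and 119 (0.962%) and 0 members, and with the block and a robust fit 29 and 47 (0.504%) and 0 members. Replicate 1 deviations from the group mean correlated between the genotypes across genes (r = 0.47, and 0.42 on autosomes). The labels do not say that a number marks a shared day or litter, and in these libraries it is also the sex. Leaving out single libraries gave 1 to 2518 genes higher, 0 to 2630 lower and 0 to 4 members (1, Phf1, without KO replicate 1, where 3.31% of genes were called, and 4, Eed, Mtf2, Phf1 and Phf19, without KO replicate 2, where 32.3% were).

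Phf1 was lower in KO in all 12 alternatives, with log2 fold changes of -2.33 to -0.80, and passed in 4 of them. Ezh2, Eed, Mtf2 and Phf19 also kept their sign in all 12. The sign turned for the 4 members nearest 0. Ezh1 was at -0.072 with library-total scaling and -0.074 with the block added, and ran from -0.0071 to 0.029 over the fits without single libraries. Jarid2 was at -0.019 with library-total scaling, with or without the block, and ran from -0.0060 to 0.136 without single libraries. Suz12 ran from -0.041 to 0.022 and Aebp2 from -0.024 to 0.0064 without single libraries. The cause of these turns was not tested.

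Ratios moved with the length used, and the direction between groups did not. Without length correction the ratio of Ezh1 to Ezh2 averaged 0.249 in KO and 0.224 in WT, the WT shares of Phf1, Mtf2 and Phf19 were 24.6%, 63.6% and 11.8%, and Jarid2 plus Aebp2 stood at 1.34 of the Polycomb-like sum in KO and 0.986 in WT. Per unshared exon base, an alternative chosen after seeing the data, the WT shares were 44.7%, 46.3% and 9.04%, the KO share of Phf19 was 11.3%, and the WT ratio of Jarid2 plus Aebp2 was 0.388. Single libraries in place of the means gave an Ezh1 to Ezh2 ratio of 0.222 to 0.225 in KO and 0.194 to 0.208 in WT. With 2 libraries a group, the 95% intervals of the 8 members other than Phf1 allow log2 changes of up to 0.72 in size.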
